A study of Mus musculus with 4 samples.

Results

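Heat shock proteins and their J-domain partners were examined in mouse thalamus and hypothalamus at postnatal day 14, reared either in darkness or under a normal light-dark cycle. Members were all genes whose symbol belongs to the Hspa, Hspb, Hspd, Hspe, Hsph or Hsp90 series, or to the Dnaja, Dnajb or Dnajc series, and that had a non-control probe on the array. The rule used names and no measured value, and it found 70 genes, carried by 117 probes, among the 18350 genes that could be named. By background knowledge of where the proteins work, 40 were placed in the cytosol and nucleus, 8 in mitochondria, 13 in the endoplasmic reticulum (ER), 4 on vesicles or endosomes and 2 in cilia, and 3 were not assigned.

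The study set 2 dark-reared samples against 2 controls. Each sample was total RNA of thalamus and hypothalamus together, on 1 one-colour Agilent array. Pregnant dams of the dark-reared group were moved shortly before delivery into a cage wrapped in black plastic, and the young stayed in the dark, tended under dim red light, until tissue was taken; control mice lived in standard cages with alternating light and dark. The labels call the samples biological replicates and do not say how many animals stand behind each, and strain and sex are not given in the sources used here. The question was whether the transcripts of these brain regions respond to the loss of visual input.

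Heat shock proteins bind proteins that are unfolded or still folding and keep them from clumping. Hsp70 proteins do this in cycles of ATP use: a J-domain protein of the Dnaj series delivers the client and starts ATP hydrolysis, and a nucleotide exchange factor such as an Hsp110 protein resets the cycle. Hsp90 matures kinases and hormone receptors, Hsp60 and Hsp10 form the folding chamber of mitochondria, and small heat shock proteins hold clients without using ATP. The heat-inducible members of the cytosol are induced by heat shock factor 1, while inducible ER members answer to the unfolded protein response. In neurons, Hsc70 with its J-domain partners also strips clathrin from synaptic vesicles.

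The 2 induction routes can be read in the promoters of some members, so these stretches are shown before the values. RefSeq promoter windows (GRCm38.p6, 250 bases before to 50 after a transcript start) were held for 56 of the 70 members. A heat shock element is a run of inverted GAA repeats; the letters GAANNTTC or TTCNNGAA (2 units) and their extension by a further repeat at the same spacing (3 units) were searched on both strands, so every match of 3 units also counts as a match of 2. The ER stress element was searched as CCAAT and CCACG with 9 bases between them, on both strands. The stretches hold matched letters in capitals and run 5′ to 3′ on the strand of the gene. Up to 40 bases are printed on each side, inside the window and before the start site, so most stretches end short of that site.
Hspe1, chr1:55088019-55088116, + strand: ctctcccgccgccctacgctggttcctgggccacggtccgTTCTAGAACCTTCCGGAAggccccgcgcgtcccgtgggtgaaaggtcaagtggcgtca
Dnajb6, chr5:29735812-29735897, + strand: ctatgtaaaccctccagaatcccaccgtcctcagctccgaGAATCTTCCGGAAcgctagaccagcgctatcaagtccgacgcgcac
Hspa1a, chr17:34972213-34972300, - strand: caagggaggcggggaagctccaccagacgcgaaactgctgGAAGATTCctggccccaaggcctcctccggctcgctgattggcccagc
Hspa5, chr2:34771985-34772083, + strand: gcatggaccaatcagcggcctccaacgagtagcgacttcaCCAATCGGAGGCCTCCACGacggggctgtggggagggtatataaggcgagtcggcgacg
Hsp90b1, chr10:86705493-86705694, - strand: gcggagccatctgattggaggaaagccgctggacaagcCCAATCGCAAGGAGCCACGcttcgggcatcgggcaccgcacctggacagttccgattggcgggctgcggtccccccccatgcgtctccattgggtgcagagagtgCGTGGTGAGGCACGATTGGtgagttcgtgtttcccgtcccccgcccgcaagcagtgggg
Dnajc3, chr14:118937787-118937885, + strand: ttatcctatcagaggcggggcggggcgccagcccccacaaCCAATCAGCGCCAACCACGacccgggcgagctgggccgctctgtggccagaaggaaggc

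The ER stress element was found in 3 of the 11 ER members with a window, the Hsp70 chaperone Hspa5 (BiP), the Hsp90 chaperone Hsp90b1 (Grp94) and the J-domain protein Dnajc3 (p58IPK), and in 0 of 34 cytosolic and 0 of 5 mitochondrial members. Of all 27025 genes with a window, 0.137% held it. Hsp90b1 carried 2 copies before the start, of which the one nearer to it reads on the opposite strand.
The heat shock element of 3 units was found in 4 members, Hspd1, Hspe1, Dnajb6 and Hsph1, against 0.662% of all genes with a window. These were 2 of 34 cytosolic, 2 of 5 mitochondrial and 0 of 11 ER members with a window. Hspd1 and Hspe1, which encode Hsp60 and Hsp10, lie head to head: the window of 1 Hspd1 start shares 285 bases with the Hspe1 window on the other strand, so both were credited with the same run of repeats. In Hsph1, which encodes Hsp110, the match lay 15 bases after 1 listed start and 36 after the other, and that stretch is not printed. The shorter heat shock element of 2 units is common, present in 16 members and in 17.0% of all genes with a window. The Hspa1a and Hspa1b windows were identical at 296 of 300 positions, and the stretch printed for Hspa1a has the same letters at Hspa1b (chr17:34959295-34959382, - strand). A match of letters describes the window only.

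**Figure D1:**
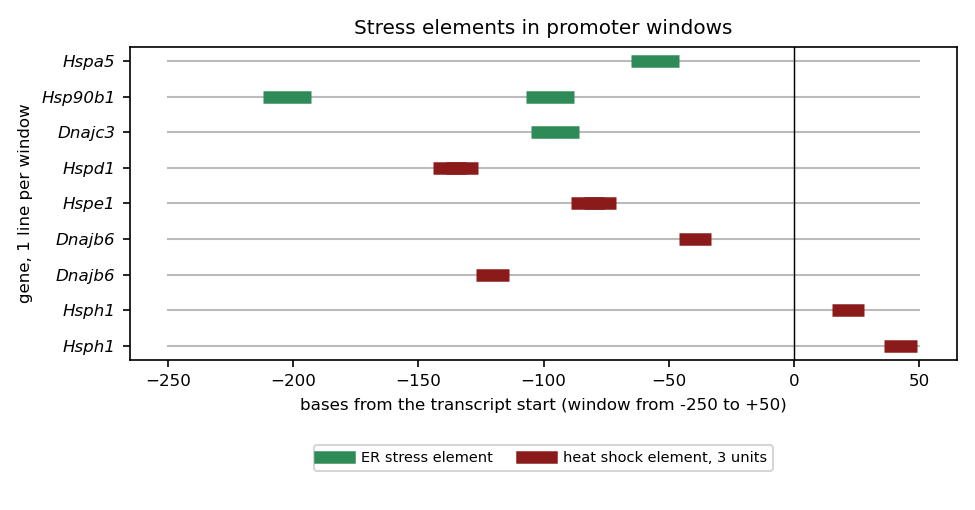
Position of the ER stress element (green) and of the heat shock element of 3 units (dark red) in promoter windows, in bases from the transcript start; each grey line is 1 window of a gene that holds a match. The 3 genes with an ER stress element are ER chaperones, and in Hsph1 the heat shock element lies after the start.

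Values below are log2 signal after subtraction of the array's own 75th percentile, given in the order dark-reared 1, dark-reared 2, control 1, control 2; a difference is the dark-reared minus the control mean, with its standard error from limma. Levels of different probes were not compared, because the signal of a probe depends on its own sequence. Of 41174 probes per array, between 65.86% and 73.27% were well above background and 0 spots were saturated. A gene was tested where its probe passed the filter on dim probes, which 65 of the 70 members did. Of the markers of the labelled tissue, 10 of 10 of thalamus and 9 of 12 of hypothalamus passed the same filter (Pmch, Agrp and Sim1 did not), as did 7 of 8 of striatum and 10 of 10 of cortex and hippocampus, so passing it does not settle the region. The hypothalamic hormone genes Oxt and Avp measured -3.31 and -3.61 in dark-reared 1, against 2.38 to 3.97 and 1.18 to 3.91 in the other samples. Dark-reared 1 thus stood apart in these genes, but control 1 did in others of the list. Hcrt measured -3.16, -2.13, 2.15 and -3.65, and Pmch, which failed the filter, -5.74, -4.47, 2.69 and -6.65. Npy followed neither pattern, at 3.14, 2.17, 2.36 and 3.15.
The 4 samples differed in regional make-up within both groups. Summed linear signal of the thalamus list ran from 10.9 to 32.9 (in units of the 75th percentile) in dark-reared and from 16.4 to 56.0 in control samples, and that of the hypothalamus list from 12.5 to 31.7 and from 22.9 to 59.3. Striatum markers (7 of 8 tested) ran from 95.7 to 289 and from 110.0 to 272, oligodendrocyte markers (8 of 9) from 126 to 513 and from 320.0 to 547, and immediate early genes (10 of 10), which are induced by neuronal activity, from 25.8 to 59.7 and from 24.7 to 62.6. Choroid plexus markers (7 of 8 tested) ran from 12.4 to 19.8 in dark-reared and from 2.94 to 18.5 in control samples. All 7 were lowest on control 2, as were all 10 markers of ependyma and motile cilia. In whole tissue, fewer cells of a type and less RNA per cell cannot be told apart. The 4 arrays lay on 3 slides, and only dark-reared 2 and control 2 shared one.

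Chaperone transcripts were close to each other in dark-reared and control tissue. None of the 65 members passed an adjusted p of 0.05 in limma with Benjamini-Hochberg adjustment over 21426 genes, and 0% of all genes did; the lowest adjusted p of a member was 1. At an unadjusted p under 0.05, limma named 1 member, Hspb7, and 267 genes in all. In 62 of 65 members (95.4%) the means of both groups lay less than 0.5 apart on the log2 scale, a share near the 92% of all genes. The 95% interval of the difference stayed inside 2-fold in either direction for 57 members (87.7%) against 73.4% of all genes, so for these 57 a change of 2-fold or more lies outside the interval. The 8 whose interval reached 2-fold were Dnajb2, Dnajc21, Dnajc5g, Hspa1a, Hspb3, Hspb6, Hspb7 and Hspb9. With 2 samples against 2, a two-sided exact permutation test of a single gene could not go below p = 0.333.
Small differences leaned one way: the mean was lower in dark-reared samples for 50 members and higher for 15, with a median difference of -0.06 against -0.0065 over all genes. Measured against the median of all genes the split was also 50 below and 15 above, and it stayed so with median scaling of the arrays, which moved that median to 0.0259 (42 and 23 against 0). The split did not hold without control 1, at 32 below and 33 above the median of all genes, or on the shared slide, at 33 below and 32 above. Without dark-reared 1, the sample low in Oxt and Avp, it was 40 below and 25 above, with 0 members past an adjusted p of 0.05 (limma, Benjamini-Hochberg). With normexp background correction it was 18 below and 47 above, and with normexp after replacing outlying local backgrounds 38 below and 27 above. Groups did not overlap, all dark-reared values lying below or above all control values, for 9 members lower in dark-reared (13.8%, against 9.57% of all genes) and for 3 higher (4.62%, against 9.53%). With median scaling the same count gave 6 lower and 5 higher. Of the 9 and 3 members above, Hspb7 and Dnajc5g passed the filter only through the group where they were higher. With their dim values set at the floor of the array, Dnajc5g overlapped and Hspb7 did not. A measured difference of at least 2-fold without overlap was found in 1 member, Hspb7, and in 1.2% of all genes; with dim values set at the floor of their array, as described for Hspb7 below, it was found in 0 members.

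**Figure D2:**
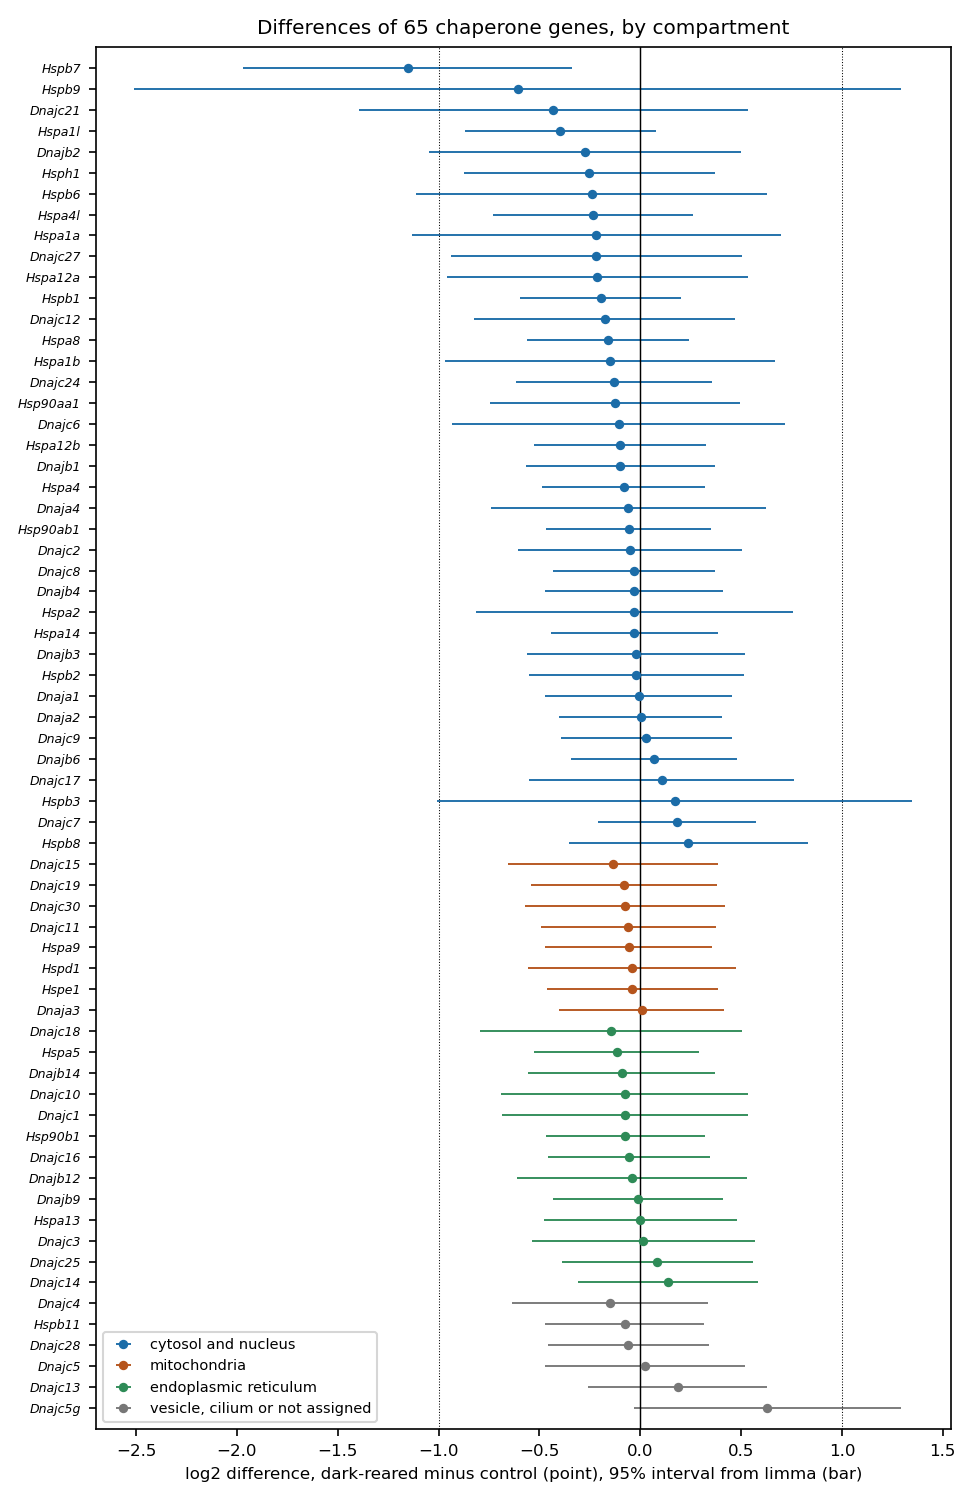
Difference between dark-reared and control means (point, log2) with its 95% interval from limma (bar, 2 samples per group) for the 65 tested members, ordered by compartment and size; dotted lines mark 2-fold. Most points lie within 0.5 of 0, and Hspb7, with 1 sample not well above background, is the member whose measured difference is past 2-fold without overlap.

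The cytosolic Hsp70 machine is led by Hspa8 (Hsc70), the constitutive Hsp70 of neurons and the partner of the clathrin uncoating reaction. Hspa8 measured 5.92, 6.0, 6.16 and 6.08. Both dark-reared values lay below both control values on this tested probe, and the difference was -0.16 ± 0.14 (95% interval -0.56 to 0.24). The other passing Hspa8 probe measured 3.52, 3.72, 3.67 and 3.70, with dark-reared 2 highest, so the groups overlapped there. The stress-induced Hsp70 genes did not separate the groups. Hspa1a measured -0.39, 0.08, 0.41 and -0.28, and its near-identical neighbour Hspa1b -3.01, -2.43, -2.35 and -2.79. In both, control 1 and dark-reared 2 were high and dark-reared 1 and control 2 low, so that the groups overlapped fully (differences -0.22 ± 0.33 and -0.15 ± 0.29). The transcripts of this pair are nearly the same in sequence, and the probes may not keep them apart.
Hspa2, an Hsp70 best known from the male germline, measured 1.35, 0.84, 1.35 and 0.90 (difference -0.03 ± 0.28), with the first sample of each group high. Hspa12a, a divergent Hsp70 of the brain, measured 1.76, 2.03, 2.40 and 1.81 and was highest in control 1 (-0.21 ± 0.27). Hspa1l, a further Hsp70 gene of the same cluster as Hspa1a, measured -3.37, -3.20, -2.78 and -3.00. Its groups did not overlap, and its difference of -0.40 ± 0.17 (95% interval -0.87 to 0.08) was the largest of the 11 tested Hsp70 genes. Over the 11 tested Hsp70 genes of all compartments, 10 had the lower mean in dark-reared samples and 1 the higher, with a median of -0.12; 7 were lowest on dark-reared 1 and 8 highest on control 1. Without control 1 the split was 5 lower and 6 higher, and with normexp the same; after outlying backgrounds were replaced, normexp gave 9 lower and 2 higher.

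The Hsp110 proteins exchange the nucleotide of Hsp70. Hspa4 measured 2.87, 2.84, 2.99 and 2.88 (difference -0.08 ± 0.14). Hspa4l measured 0.48, 0.62, 0.92 and 0.65 (-0.23 ± 0.18). In both genes the groups did not overlap on the tested probe, by a margin of less than 0.05 between the nearest samples. On the other passing probes of both genes the groups overlapped. Hsph1, whose window holds the heat shock element after the start, measured 4.25, 3.76, 4.24 and 4.27, so that dark-reared 2 stood alone below 3 nearly equal samples (-0.25 ± 0.22).
Hsp90 in the cytosol comes from an inducible and a constitutive gene. Hsp90aa1, the inducible one, measured 5.26, 5.58, 5.73 and 5.36, with the same 2 samples high as for Hspa1a (difference -0.12 ± 0.22). Hsp90ab1, the constitutive one, measured 4.70, 4.81, 4.85 and 4.76 with all 4 samples close together (-0.06 ± 0.15, 95% interval -0.47 to 0.35).

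**Figure D3:**
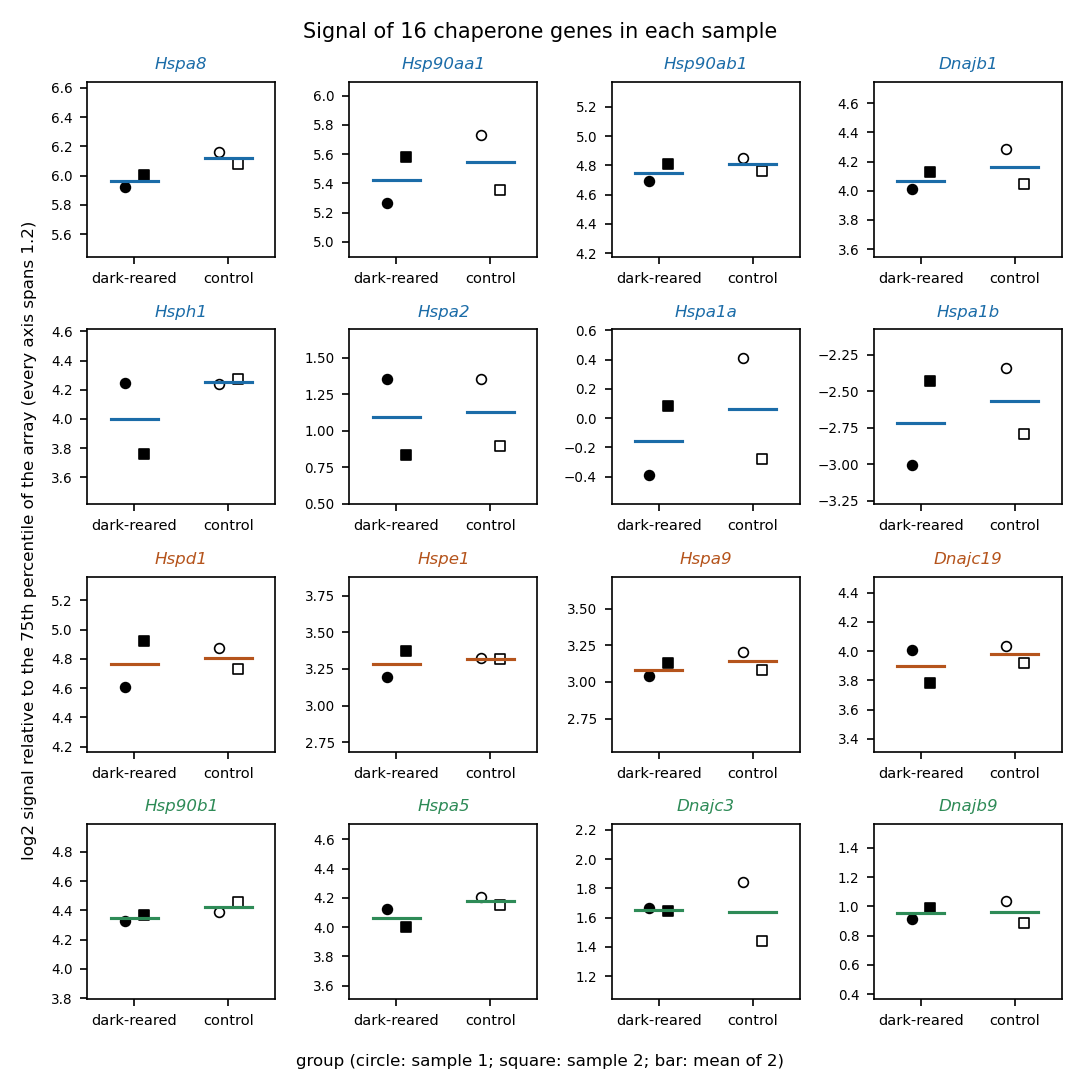
Log2 signal relative to the 75th percentile of the array for 16 members in each sample (circle, sample 1; square, sample 2; filled, dark-reared; open, control; bar, mean of 2), with title and bar coloured by compartment as in the plot of differences. Every panel spans 1.2 log2 units around its own centre; Hspa8, Hsp90b1 and Hspa5 are the panels without overlap of the groups.

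J-domain proteins of types A and B supply general clients to Hsp70. Dnaja1 measured 3.70, 3.93, 3.88 and 3.76 and Dnaja2 measured 1.83, 1.72, 1.80 and 1.74, with differences of -0.01 ± 0.17 and 0.0027 ± 0.15. Dnajb1, the Hsp40 that heat induces together with Hspa1a, measured 4.01, 4.13, 4.29 and 4.05 (-0.10 ± 0.17). None of these 3 separated the groups. Dnajb4 (1.86, 1.67, 1.74 and 1.84) and Dnajb6 (1.29, 1.36, 1.32 and 1.2), a suppressor of protein aggregation with a heat shock element of 3 units in its window, overlapped as well (-0.03 ± 0.16 and 0.07 ± 0.15). Dnajb2, a neuronal J-domain protein that binds ubiquitin, measured 1.92, 1.64, 2.36 and 1.75. Control 1 was alone high in Dnajb2, and the interval of its difference was wide (-0.28 ± 0.28, 95% interval -1.05 to 0.50).
Dnajc6 is auxilin, which recruits Hspa8 to clathrin coats. It measured 2.50, 2.95, 3.13 and 2.54, and its difference of -0.11 ± 0.30 stood beside a spread of 0.62 over the samples. The order of its samples, control 1, dark-reared 2, control 2 and dark-reared 1, was that of the thalamus markers, whose median deviation from the mean of the 4 arrays was 1.22, 0.38, -0.39 and -0.93 in that order; the part of tissue make-up in Dnajc6 was not tested. Gak, the auxilin of other tissues, listed among the co-chaperones, measured 1.28, 1.22, 1.36 and 1.35 (-0.10 ± 0.14) without overlap. Dnajc5, the cysteine string protein of synaptic vesicles, measured 4.87, 5.18, 5.02 and 4.98 with a difference of 0.03 ± 0.18.
Of the 3 members whose measured values were higher in dark-reared samples without overlap, Dnajc7, a tetratricopeptide repeat protein that links Hsp70 and Hsp90, measured 2.28, 2.23, 2.06 and 2.09 (difference 0.18 ± 0.14). Dnajc13, which acts in endosomal sorting, measured -0.35, -0.24, -0.58 and -0.38 (0.18 ± 0.16). Dnajc5g, a relative of Dnajc5, measured -4.51, -4.52, -4.87 and -5.42 on its tested probe. Both control samples of Dnajc5g were not well above background, and the probe passed the filter through the dark-reared group. With each control sample set at the floor of its array, or at its own signal where higher, the difference was 0.148 and the groups overlapped (measured difference 0.63 ± 0.24). The floor of control 2, at -4.45, lay above both dark-reared values, so separation from that sample was not shown, and with normexp the difference was -0.69. A second Dnajc5g probe, which failed the filter on dim probes, measured -6.82, -7.19, -7.38 and -6.04, with overlap and a difference of -0.30. Dnajc21, a factor of ribosome assembly, measured -1.88, -1.16, -0.83 and -1.35 and was among the most variable members, with dark-reared 1 lowest (-0.43 ± 0.35).

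Small heat shock proteins were the most variable family: the range over the 4 arrays had a median of 0.75 in the 7 tested genes, against 0.31 over all tested members and 0.42 over all genes. Several of their probes gave low signal, and the part of signal level in this spread was not tested. Hspb7, a small heat shock protein of heart muscle, measured -5.67, -4.95, -4.10 and -4.21 on the probe that passed the filter, with a difference of -1.15 ± 0.29 (95% interval -1.97 to -0.34, unadjusted p 0.0173, Benjamini-Hochberg adjusted p 1 in limma). The groups did not overlap, but the probe passed the filter through the control group and was not well above background on dark-reared 1. Set there at the floor of the array, the lowest signal well above background (-5.15), the difference was -0.89, under 2-fold. A second Hspb7 probe, which failed the filter on dim probes, measured -6.09, -6.04, -6.71 and -6.42 and so lay higher in dark-reared samples.
Hspb9, a germline gene, measured -2.70, -0.96, -1.58 and -0.87, and Hspb3, a muscle gene, -1.57, -2.68, -2.24 and -2.35. Dark-reared 1 alone was low in Hspb9, while the dark-reared samples held both the highest and the lowest value of Hspb3, and the intervals ran from -2.51 to 1.29 and from -1.01 to 1.35. Hspb1 (Hsp27) measured 0.11, 0.08, 0.34 and 0.24, lower in both dark-reared samples, with a difference of -0.20 ± 0.14. Hspb8, which works with the co-chaperone Bag3 in autophagy, measured -0.57, -0.53, -0.56 and -1.01 and was low in control 2 alone (0.24 ± 0.21). Hspb6 (Hsp20) measured -2.99, -3.74, -3.01 and -3.24, lowest in dark-reared 2 (-0.24 ± 0.31).
The crystallin Cryab, a small heat shock protein abundant in oligodendrocytes and kept in the co-chaperone list because its symbol is outside the rule, measured 2.28, 0.22, 2.35 and 1.31. Oligodendrocyte markers had median deviations of 0.69, -1.39, 0.80 and -0.05, with dark-reared 2 lowest there too; the part of these cells in the values of Cryab and Hspb6 was not tested.

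Mitochondrial members varied less over the arrays than cytosolic and ER members. Hspd1, the Hsp60 of the folding chamber, measured 4.61, 4.92, 4.88 and 4.73, and Hspe1, its Hsp10 lid, 3.19, 3.37, 3.32 and 3.32. Both genes of this head-to-head pair were lowest on dark-reared 1 and highest on dark-reared 2, and their differences were both -0.04, with standard errors of 0.19 and 0.15. Hspa9 (mortalin), the Hsp70 of the import motor, measured 3.04, 3.13, 3.20 and 3.08 (-0.06 ± 0.15, 95% interval -0.47 to 0.36). The J-domain protein Dnajc19 of the import motor measured 4.01, 3.79, 4.04 and 3.92, and Dnaja3, which assists Hspa9 in the matrix, measured 1.57, 1.71, 1.65 and 1.62 (-0.08 ± 0.17 and 0.01 ± 0.15). Of the 8 mitochondrial members, 7 had the lower and 1 the higher mean in dark-reared samples, and 6 were lowest on dark-reared 1. The groups separated in 0 of them (0%, against 19.1% of all genes). The median difference was -0.06; with normexp it was 0.13, with normexp after replacing outlying backgrounds -0.01, and on the shared slide 0.05.

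In the ER, Hspa5, the master chaperone that holds the unfolded protein sensors inactive, measured 4.13, 4.00, 4.21 and 4.15. Hsp90b1 measured 4.33, 4.37, 4.39 and 4.46. In both, the dark-reared values lay just below the controls, at differences of -0.12 ± 0.15 and -0.07 ± 0.14, and with normexp both turned to the other side (0.13 and 0.06) but not after outlying local backgrounds were replaced (-0.02 and -0.09). The other carrier of the ER stress element, Dnajc3, which restrains the kinase PERK, measured 1.66, 1.65, 1.84 and 1.44 with a difference of 0.01 ± 0.20. Dnajb9 (ERdj4), a sensitive target of the unfolded protein response, measured 0.92, 0.99, 1.04 and 0.89 (-0.01 ± 0.15). Dnajc10 (ERdj5), which reduces disulfide bonds, measured 1.00, 1.41, 1.41 and 1.16 (-0.08 ± 0.22), and Hspa13 measured 1.22, 1.48, 1.40 and 1.29 (0.0001 ± 0.17). Hspa5 and Hsp90b1 were the only ones of the 13 ER members whose groups did not overlap. That share of 15.4% was no higher than the 19.1% of all genes.
Set side by side, the compartments had median differences of -0.10 in the 38 tested cytosolic members (31 lower, 7 higher), -0.06 in the 8 mitochondrial and -0.06 in the 13 ER members (9 lower, 4 higher), against -0.0065 over all genes. Without control 1 these became -0.02, -0.0080 and 0.03, and on the shared slide -0.05, 0.05 and -0.09. The gaps between compartments were smaller than the shift from leaving out that array and were not tested. The median range over the arrays was 0.46 in the cytosol, 0.27 in the ER and 0.23 in mitochondria, and the small heat shock proteins contribute to the first. Whether signal level had a part in these ranges was not tested.

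**Figure D4:**
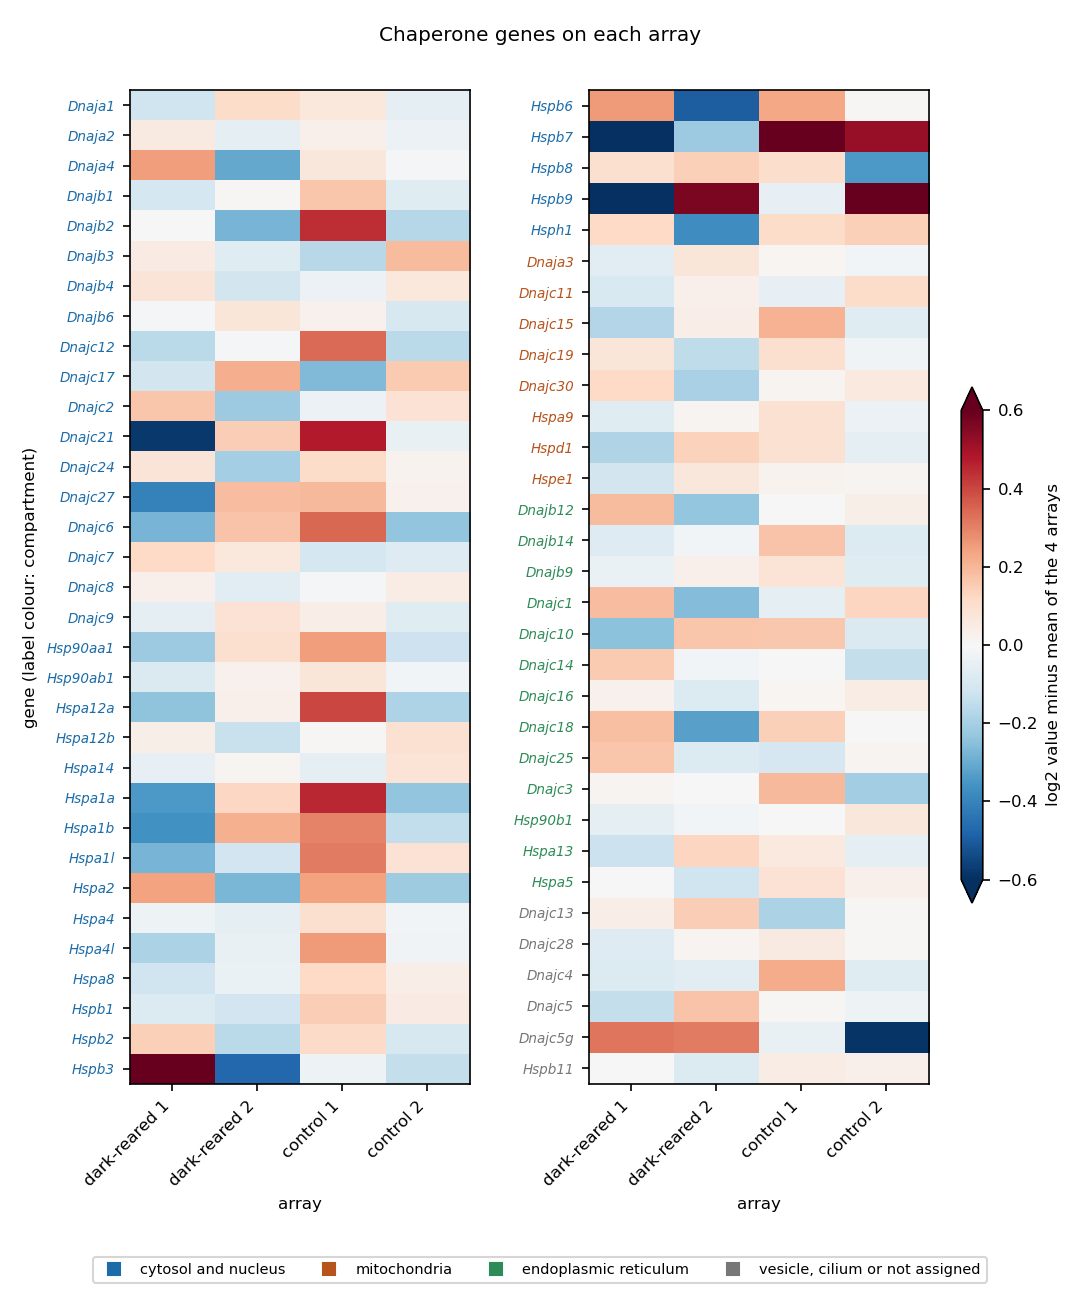
Log2 value of each tested member minus its mean over the 4 arrays (colour, clipped at 0.6 either way), by gene and array, with gene names coloured by compartment. Control 1 is the highest array for 29 of the 65 members and dark-reared 1 the lowest for 28.

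High and low values gathered on single arrays. Control 1 held the highest value of 29 members (44.6%, against 23.8% of all genes), and the lowest value lay on dark-reared 1 in 28 members (43.1%, against 28.4%) and on dark-reared 2 in 23 (35.4%, against 28.3%). Median deviations of the cytosolic members were -0.05, -0.04, 0.11 and -0.02, those of the mitochondrial members -0.08, 0.04, 0.06 and -0.02, and those of the ER members 0.02, -0.02, 0.06 and 0.0010. Control 1 was also the array with the highest thalamus and hypothalamus markers, and dark-reared 1 the lowest; the part of that make-up in the chaperone values was not tested. The thalamus shifts were larger by an order of magnitude, with medians of -0.93, 0.38, 1.22 and -0.39. Not every marker list moved so far. General neuron markers had medians of -0.02, -0.16, 0.16 and 0.0033, near the size of the chaperone shifts and also highest on control 1.

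**Figure D5:**
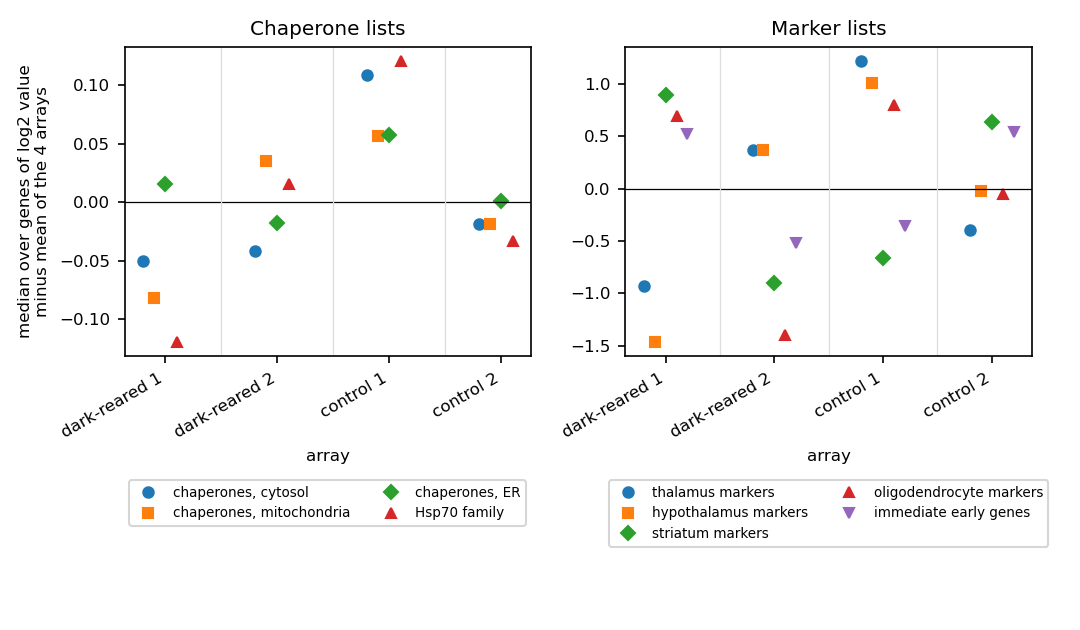
Median over genes of the log2 value minus the mean of the 4 arrays, for lists of chaperones (left) and of regional or cell markers (right), on each array; the vertical scales differ. The 4 chaperone lists plotted stay within 0.12 of 0 while the 5 marker lists plotted range from -1.46 to 1.22.

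Genes that work beside the members also had 0 past an adjusted p of 0.05 (limma, Benjamini-Hochberg) in each list. Their splits by direction moved with the processing too, as shown for 2 lists below. Among heat shock factors and their regulators, 7 of 8 were tested, 2 with the higher and 5 with the lower mean in dark-reared samples. Hsf1, the master regulator of the heat shock response, measured 1.71, 1.56, 1.56 and 1.88 (difference -0.08 ± 0.19), and the germline factor Hsf5 measured -2.94, -3.27, -3.51 and -3.39 without overlap (0.34 ± 0.19). Of 29 cytosolic co-chaperones, 28 were tested, with 7 higher and 21 lower (8 above and 20 below the median of all genes). Fkbp5, a co-chaperone of steroid receptors that glucocorticoids induce, measured -1.50, -1.54, -2.07 and -1.54. Control 1 alone was low, and the other control lay barely below the dark-reared samples (0.29 ± 0.24). The lens crystallin Cryaa measured -4.73, -5.84, -4.48 and -4.35 (-0.87 ± 0.42). Its probe passed the filter through the control group. On dark-reared 2 it was not well above background, below the floor of that array at -5.05, so the size of the difference is uncertain. The 14 genes of the chaperonin and prefoldin split into 5 higher and 9 lower (6 above and 8 below the median of all genes), among them Pfdn1 (-0.20 ± 0.17), Cct6a (0.13 ± 0.15) and Pfdn5 (-0.10 ± 0.14). That split turned to 11 above and 3 below without dark-reared 1, and to the same on the shared slide.
Of 28 genes of ER folding and the unfolded protein response, 25 were tested, with 5 higher and 20 lower (6 above and 19 below the median of all genes). That split did not hold with normexp, at 18 above and 7 below, or on the shared slide, at 12 above and 13 below. After outlying backgrounds were replaced, normexp gave 7 above and 18 below. Without overlap, 7 were lower (28% of the list, against 9.57% of all genes) and 1 was higher (4%, against 9.53%). Lower and higher shares were 26.7% and 13.3% in the mitochondrial folding and import list, and 21.4% and 14.3% in the chaperonin and prefoldin list. They were 17.9% and 3.57% among cytosolic co-chaperones, and 0% and 14.3% among heat shock factors and their regulators. Ero1a, the oxidase that drives disulfide formation, measured -1.93, -2.01, -1.64 and -1.76 (-0.27 ± 0.15). Ddit3 (CHOP), the transcription factor of prolonged ER stress, measured -0.56, -0.55, -0.38 and -0.34 (-0.20 ± 0.14), and Atf6b measured 0.02, -0.13, -0.25 and -0.22 (0.18 ± 0.15). Of 17 genes of mitochondrial folding and import, 15 were tested, with 5 higher and 10 lower. Pam16 (-0.14 ± 0.14), the Hspa9 exchange factor Grpel1 (-0.12 ± 0.15) and the protease subunit Clpp (-0.11 ± 0.14) had the largest differences without overlap there.

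For 5 members no difference was fitted. Dnajb13, a sperm flagellum protein, was well above background on control 1 alone, and Dnajb7, Dnajb8, Dnajc22 and Dnajc5b had no probe that passed the filter. The ciliary member Hspb11 (Ift25) measured 1.33, 1.24, 1.37 and 1.35, lower in both dark-reared samples by a narrow margin (-0.08 ± 0.14). Of 30 members with more than 1 passing probe, all their probes went the same way in 14, so for the other 16 the sign of the difference depended on the probe. Members not named above had differences between -0.22 and 0.14.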

How the data were processed

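RNA of 4 samples (2 dark-reared, 2 control; thalamus and hypothalamus, Agilent one-colour arrays) was analysed. Each deposited scanner file, made by the authors, gives a background-subtracted intensity per spot. The file headers name Agilent Feature Extraction 10.7.3.1 as the software that wrote them, and the submitters' processing notes give 10.7. The authors' deposited table of log2 values served as an alternative; its normalization is not stated in what was used here.
From the intensity, log2 was taken minus the 75th percentile of each array, outlier spots and control spots were left out, and spots of 1 probe were averaged. Probes were kept where the scanner software found signal well above background on both arrays of 1 group or more, and a gene was represented by the brightest such probe over the 4 arrays. Tests used lmFit and eBayes in limma 3.58.1 (R 4.3.3), two-sided, with Benjamini-Hochberg adjustment over 21426 genes or unnamed accessions; the script was tested on simulated data. Precision is limited by the number of arrays. The p-values measure the spread between these samples.
Symbols came from RefSeq accessions matched to a RefSeq table of GRCm38.p6, used for names only: 26918 of 41174 probes had 1 symbol and 14256 had none here, so Dnajb5 and Dnajb11 are without a value. The design named mean signals for normexp; median spot and background signals were used, with an offset of 50. Same-numbered samples of the groups were not paired: over 21426 genes, the contrast of sample 1 with sample 2 in dark-reared tissue correlated with that in control tissue at r = -0.158.
Genes named in the text were a set list of chaperones, the 6 tested members in each direction with the largest difference without overlap, the 6 with the widest range over arrays, and up to 3 per related list by the same rule; Hsf1 and Cryab were added after their values were seen. Members and lists were chosen with earlier results of these data known. Protein sequences were not analysed here.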

Additional observations from a re-analysis of the deposited data

How the results depend on the processing

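The count of members past an adjusted p of 0.05 stayed at 0 in limma under each of 16 alternatives, at 0 to 3 members with an unadjusted p under 0.05; the lowest adjusted p of a member was 0.513, without dark-reared replicate 2, and 0.767 without dark-reared replicate 1. Under the replicate block the count was again 0, and under the crossed pairing (chosen after seeing the data) 0. In this balanced layout a block leaves the differences unchanged, and overlap is counted without it. The calls on 2-fold and overlap could therefore not change under either block. The slide as a block leaves 1 sample against 1 and gives values with no test. The 1 member at least 2-fold apart without overlap (Hspb7) became 0 under normexp, 0 under normexp with outlying local backgrounds replaced and 0 with the filter on all 4 arrays, which drops it; with dim values set at the floor of their array (chosen after seeing the data) it was 0, the Hspb7 difference being -0.8948; leaving out 1 sample gave 0 to 2. The 12 members without overlap became 27 to 48 with 1 sample left out, since 1 value set against 2 overlaps less often by construction. With 1 sample left out, the cytosolic median difference of -0.099 ranged from -0.1877 (without control 2) to -0.024 (without control 1), the mitochondrial one of -0.058 from -0.1113 to -0.0048, and the ER one of -0.0572 from -0.0573 to 0.0259. Under normexp the mitochondrial median was 0.1349 and the ER median -0.0212 (-0.0227 with outlying backgrounds replaced); the mitochondrial median was -0.0148 after that replacement. On the shared slide the mitochondrial median was 0.0514 and the ER median -0.0851. Normexp shifted the median of all genes to -0.1154, and under it the sign turned for Hspa4 (0.0143), Hspa5 (0.1292), Hspa8 (0.0234), Hsp90b1 (0.0638), Hspb11 (0.0344) and Dnajc5g (-0.6921). The background mean fitted by normexp on control 2 was -235.8, and -4.251 once outlying local backgrounds were replaced; the median of all genes was then -0.013 and the 6 signs were those of the values reported above. Of 12 named members without overlap, these 6 were the sign changes among 202 alternative values; 26 of the 29 named members with overlap changed sign at least once. Signal was well above background on all 4 arrays for 63 of 65 members; for Hspb7 and Dnajc5g dim signal was a further limit.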
